A study of Mus musculus with 9 samples.

Results

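Lgr4, Lgr5, Lef1, Tcf7, Tcf7l2, Axin2, Ctnnb1 and Sfrp1, 8 genes of the canonical Wnt pathway, were followed in the uterine luminal epithelium of mice with and without an added epithelial progesterone receptor. They were taken by symbol from an expression table of 15158 genes, and all 8 were in it. The table holds 9 libraries, 3 per genotype, of luminal epithelium cut out by laser capture at pregnancy day 4 from females housed to 8 weeks of age and then mated. The control genotype was Wnt7acre, a Cre recombinase named for the Wnt7a gene, whose promoter is active in uterine epithelium. The second genotype, Wnt7acre/+PgrALsL/+ (ePRAoe), added an allele for progesterone receptor isoform A, and the third, Wnt7acre/+PgrBLsL/+ (ePRBoe), an allele for isoform B. In both alleles LsL names the stop cassette that Cre removes. All 3 genotypes carry the Cre, so the added receptor is the difference between them by label. The sources used here do not say whether a library came from 1 animal or from a pool. The libraries of a genotype are numbered bioreplicates and no animal is named, so the p-values measure only the spread between these libraries.

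In the canonical Wnt pathway, a Wnt protein binds a Frizzled receptor and a co-receptor and stops a destruction complex from degrading beta-catenin, the product of Ctnnb1. Beta-catenin then enters the nucleus and joins DNA-binding factors of the TCF/LEF family, which include Lef1, Tcf7 and Tcf7l2, at target genes such as Axin2. Lgr4 and Lgr5 are R-spondin receptors that keep Frizzled at the cell surface, and Sfrp1 is a secreted protein that binds Wnt ligands. Lgr5 is best known as a marker of epithelial stem cells, and the luminal epithelium of the uterus is the layer to which the embryo attaches.

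Pgr, which both added alleles encode, was at 17.4, 3.82 and 6.62 FPKM (by name, fragments scaled to transcript length and library size) in control replicates 1, 2 and 3. The ePRAoe libraries had 41.7, 49.5 and 42.8 FPKM of it and the ePRBoe libraries 38.1, 38.3 and 45.9. A value per gene does not tell isoform A from isoform B. Wnt7a, the ligand gene that names the Cre, was at 56.8 ± 13.8 FPKM (SD, n = 3) in control, 20.8 ± 13.9 in ePRAoe (limma difference -1.57, adjusted p = 0.0457) and 28.9 ± 18.8 in ePRBoe. The libraries summed to 272213 to 314010 FPKM. Read depth is not stated in the sources used here. Steps between low FPKM values, common to the libraries of a gene, put it near 11.4 M reads. That is a median over 244 genes (quartiles 8.49 and 13.1 M) and not a depth of any single library. Sequencing fell in 3 runs, named in the labels: all 3 ePRBoe libraries were in run 1 with Wnt7acre 3 and ePRAoe 2, while run 2 held Wnt7acre 2 and ePRAoe 3 and run 3 held Wnt7acre 1 and ePRAoe 1. The fit therefore carried the run as a term, and ePRBoe was compared with the controls of runs 2 and 3 only through the ePRAoe libraries. The summed FPKM of 15 luminal epithelium markers was 1591 to 2133 in control, 1574 to 2362 in ePRAoe and 1902 to 2014 in ePRBoe, with the epithelial keratin Krt18 and the epithelial cadherin Cdh1 among the 3 highest. Of these 15, 5 rose and 3 fell in ePRAoe and 2 rose and 0 fell in ePRBoe. A rise or fall here is a limma adjusted p under 0.05 against control. Over all tested genes 7.2% rose and 8.98% fell in ePRAoe, and 6.41% rose and 2.48% fell in ePRBoe. Stroma markers were not at 0 in any library. The summed FPKM of 18 of them was 115 to 148 in control, 276 to 457 in ePRAoe and 479 to 630 in ePRBoe. By the same test and beside the same shares, 12 of the 18 rose in ePRAoe and 15 of the 18 in ePRBoe. The sum of 15 immune cell markers was 245 to 489 in control, 155 to 225 in ePRAoe but 476 to 591 in ePRBoe. The 10 gland markers summed to 77.6 to 283, 295 to 568 and 239 to 300 FPKM, and 6 of the 10, among them the gland factor Foxa2, did not reach the expression filter. Calb1, which also stands on the luminal list, was the largest part of that sum in each library but Wnt7acre 2, where Spink1 at 41.2 FPKM exceeded Calb1 at 30.0. In such bulk captures, fewer cells of a type and less RNA per cell cannot be told apart.

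**Figure D1:**
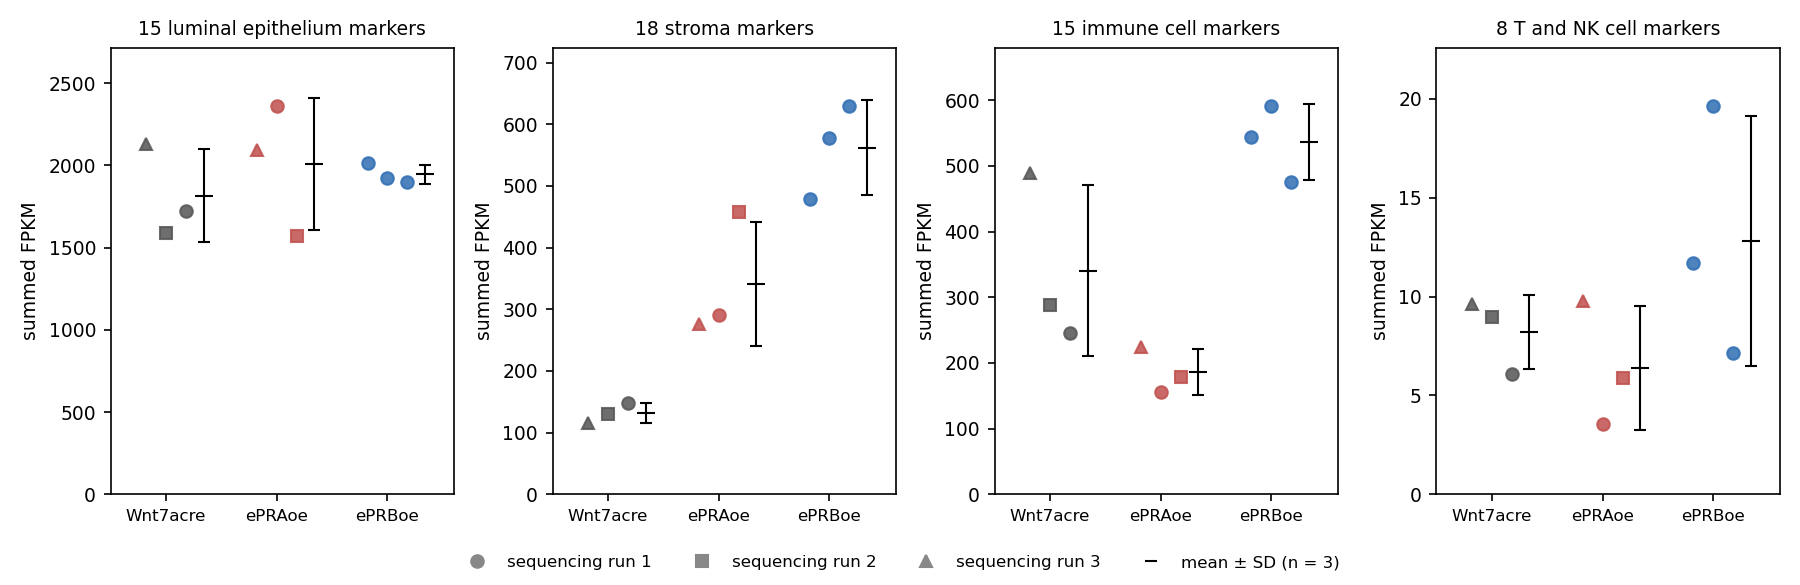
Summed FPKM (y axes, linear, from 0) of marker genes of luminal epithelium, stroma, immune cells, and T and natural killer (NK) cells in each library, by genotype, with symbols for the sequencing run and the mean ± SD of 3 libraries. The stroma sum was 115 to 148 in control, 276 to 457 in ePRAoe and 479 to 630 in ePRBoe, and the 3 ranges do not overlap, while the luminal sums of the 3 genotypes overlap.

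All 8 genes are protein coding in GENCODE M21, on mm10. Lgr4 (ENSMUSG00000050199.13) is at chr2:109917647-110014257 on the plus strand and Lgr5 (ENSMUSG00000020140.15) at chr10:115450311-115587780 on the minus strand. Ctnnb1 (ENSMUSG00000006932.17) is at chr9:120929216-120960507 on the plus strand and Axin2 (ENSMUSG00000000142.15) at chr11:108920349-108950783 on the plus strand. Lef1 (ENSMUSG00000027985.14) is at chr3:131110471-131224356 on the plus strand, Tcf7 (ENSMUSG00000000782.15) at chr11:52252371-52283014 on the minus strand and Tcf7l2 (ENSMUSG00000024985.19) at chr19:55741820-55933654 on the plus strand. Sfrp1 (ENSMUSG00000031548.7) is at chr8:23411502-23449632 on the plus strand.

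The sequence before the annotated starts is shown for Lef1, the one member that rose in both receptor genotypes in the values that follow, and for Axin2, the standard target. RefSeq start windows on GRCm38.p6, the assembly of mm10, were found for 6 of the 8 genes, in 12 windows. Lgr5 and Sfrp1 had no entry in that table. Each window is the 250 bases before a start, on the gene's strand, 5′ to 3′. Capitals mark matches to the TCF/LEF motif, written NNCAAAG with A or T at each N, or to AGAACA, the core hexamer of progesterone receptor sites, each searched on both strands. The first Lef1 window, chr3:131110047-131110296, precedes the outermost start, the second, chr3:131156044-131156293, precedes a start inside the gene, and the Axin2 window is chr11:108920099-108920348, all on the plus strand.
Lef1 outermost start: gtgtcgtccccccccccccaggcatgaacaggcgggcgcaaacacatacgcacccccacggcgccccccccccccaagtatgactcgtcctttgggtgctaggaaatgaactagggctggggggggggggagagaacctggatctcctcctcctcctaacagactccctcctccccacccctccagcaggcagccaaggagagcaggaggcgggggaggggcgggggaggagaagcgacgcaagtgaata
Lef1 inner start: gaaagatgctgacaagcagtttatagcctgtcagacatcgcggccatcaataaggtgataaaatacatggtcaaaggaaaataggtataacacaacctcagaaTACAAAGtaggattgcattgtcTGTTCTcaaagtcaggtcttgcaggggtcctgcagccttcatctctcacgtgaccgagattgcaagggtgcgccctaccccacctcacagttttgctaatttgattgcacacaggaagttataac
Axin2 start: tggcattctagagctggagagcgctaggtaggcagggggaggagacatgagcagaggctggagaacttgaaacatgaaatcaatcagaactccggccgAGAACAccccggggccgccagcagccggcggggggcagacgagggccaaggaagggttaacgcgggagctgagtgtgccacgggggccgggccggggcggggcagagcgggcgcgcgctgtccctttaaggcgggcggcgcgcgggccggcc
The outermost Lef1 window holds neither motif. The inner one has TACAAAG beginning 147 bases before the start and TGTTCT, the hexamer on the other strand, at 125 bases. The Axin2 window has AGAACA at 152 bases and no TCF/LEF match. Among the remaining windows, another inner Lef1 start has AGAACA at 10 bases, and an inner Tcf7l2 start has CTTTGTT at 14 bases overlapping TGTTCT at 11 bases. The windows of Lgr4, Ctnnb1 and Tcf7 hold none of these letters. Of 32851 windows of the same length, 14.8% held the TCF/LEF motif and 16.1% the hexamer. The full palindromic progesterone response element, with a pair of such hexamers and in 0.387% of all windows, was in none of the 12. A match is a description of these letters and not a bound site.

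Lef1 rose in both receptor genotypes, Lgr5 and Sfrp1 fell in ePRAoe, and Tcf7 rose in ePRBoe. In ePRAoe against control, by limma with Benjamini-Hochberg adjustment over 12347 tested genes, this was 1 of 8 higher and 2 of 8 lower. Over all tested genes 16.2% were called, 7.2% higher and 8.98% lower. In ePRBoe against control, Lef1 and Tcf7 rose and 0 of the 8 fell, where 8.89% of all tested genes were called, 6.41% higher and 2.48% lower. In ePRBoe against ePRAoe 0 of the 8 passed, where 0.324% of all tested genes were called, 0.316% higher and 0.0081% lower. At an unadjusted limma p under 0.05 were 2 of the 8. The share of all tested genes at that cut was not computed, so this count cannot be weighed. The median difference of the 8 was 0.14, 0.27 and 0.40 on the log2(FPKM + 1) scale in these 3 comparisons, beside -0.03, 0.10 and 0.15 over all tested genes. By range alone, 1 of the 8 in ePRAoe lay above all control libraries and 2 below, where 28.9% of tested genes had no overlap, 12.6% higher and 16.2% lower. In ePRBoe 4 lay above and 2 below the controls, where 39.8% had no overlap, 23.5% higher and 16.3% lower. Between ePRBoe and ePRAoe, Lef1 and Tcf7 had no overlap, both higher in ePRBoe, where 22.6% had none, 16.8% higher and 5.8% lower. Sfrp1 reached 1 FPKM only in the 3 control libraries and so entered the test through the group where it was high, which means that its fall adds no weight to these counts. The comparisons with control share the 3 control libraries, and both ePRBoe comparisons share the 3 ePRBoe libraries.

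**Figure D2:**
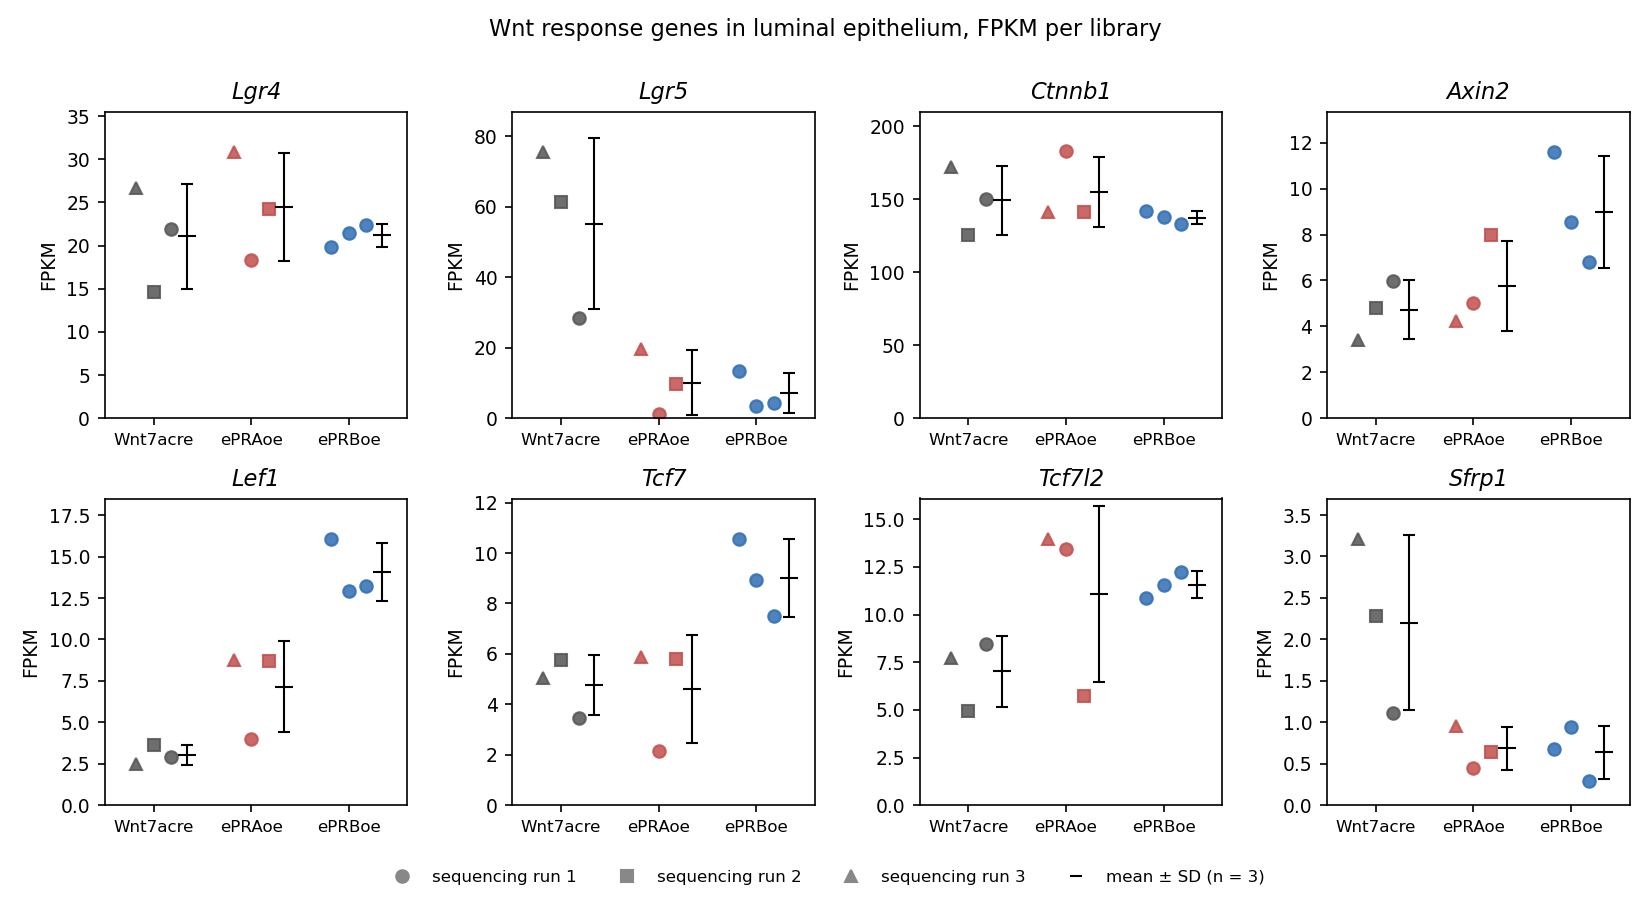
FPKM (y axes, linear, from 0) of the 8 genes in each of the 9 libraries, by genotype, with symbols for the sequencing run and the mean ± SD of 3 libraries. Lgr5 is at 28.5 FPKM or more in the control libraries and at 19.5 or less in the others, and Lef1 is at 12.9 FPKM or more in the ePRBoe libraries and at 8.79 or less in the others.

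Among the R-spondin receptors, Lgr5 fell in ePRAoe, and Lgr4 passed the test in neither genotype. Lgr5 was at 75.6, 61.5 and 28.5 FPKM in control replicates 1, 2 and 3. The ePRAoe libraries had 19.5, 1.07 and 9.75 FPKM and the ePRBoe libraries 13.5, 3.58 and 4.29. Each control library was above each of the other 6, and the ePRAoe and ePRBoe ranges overlap. The mean was 55.2 ± 24.2 FPKM (SD, n = 3) in control, 10.1 ± 9.22 in ePRAoe and 7.13 ± 5.54 in ePRBoe, which makes the control mean 5.46 and 7.74 times the others. The limma difference of ePRAoe from control was -2.76 on the log2(FPKM + 1) scale (SE 0.49, 95% interval -3.90 to -1.62, adjusted p = 0.0106). Within the runs, Lgr5 in ePRAoe was lower than in the control of the same run by differences of -3.84, -2.54 and -1.90 on that scale in runs 1, 2 and 3. The call for ePRAoe did not hold without the run term (adjusted p = 0.0513) or without Wnt7acre 2 (0.0552), Wnt7acre 3 (0.0683), ePRAoe 2 (0.0686) or ePRAoe 3 (0.0553).

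Lgr5 in ePRBoe differed from control by -1.53 on the same scale (SE 0.60, 95% interval -2.93 to -0.13), with an adjusted p of 0.161 by limma, which misses the threshold of 0.05. The only control in the run of the ePRBoe libraries was Wnt7acre 3, the lowest of the controls for Lgr5. Against it alone the mean difference of the 3 ePRBoe libraries was -2.06. With genotype alone in the limma fit, all 3 controls count alike and the difference was -2.88 (adjusted p = 0.0393). With the run term and 1 library left out, the difference lay between -2.06 without ePRAoe 2 and -0.45 without Wnt7acre 3. ePRBoe and ePRAoe differed by 1.23 in Lgr5 (95% interval -0.17 to 2.63, adjusted p = 0.315), a difference of -0.12 without the run term, so their order was not resolved.

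Lgr4, the paralogue of Lgr5 with the same ligands, was at 26.7, 14.6 and 21.9 FPKM in control, 30.9, 18.4 and 24.2 in ePRAoe and 19.8, 21.4 and 22.4 in ePRBoe. The 3 genotypes overlap, and the limma difference from control was 0.22 in ePRAoe (95% interval -0.20 to 0.64, adjusted p = 0.451) and 0.18 in ePRBoe (-0.33 to 0.69, 0.655). Since FPKM is scaled to transcript length, the levels of the 2 receptors can be set side by side. Lgr5 was the higher of the pair in each control library and the lower in each of the other 6. Its share of the sum of Lgr4 and Lgr5 FPKM was 73.9%, 80.8% and 56.6% in control, 38.7%, 5.48% and 28.7% in ePRAoe, and 40.6%, 14.3% and 16.1% in ePRBoe. The control shares did not overlap with the others. The mean share was 70.4 ± 12.5% in control, 24.3 ± 17.0% in ePRAoe and 23.7 ± 14.7% in ePRBoe (SD, n = 3). Its difference from control was -46.1 percentage points in ePRAoe and -46.7 in ePRBoe, with an exact two-sided permutation p of 0.1 each, the smallest that 3 against 3 libraries allow (0.2 after adjustment over 6 share comparisons). Within runs 1, 2 and 3 the ePRAoe share was lower than that of the control by -51.1, -52.1 and -35.2 points, and in run 1 the ePRBoe mean differed from the control by -32.9 points. Lgr6, the third receptor of the family, was not analysed here.

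**Figure D3:**
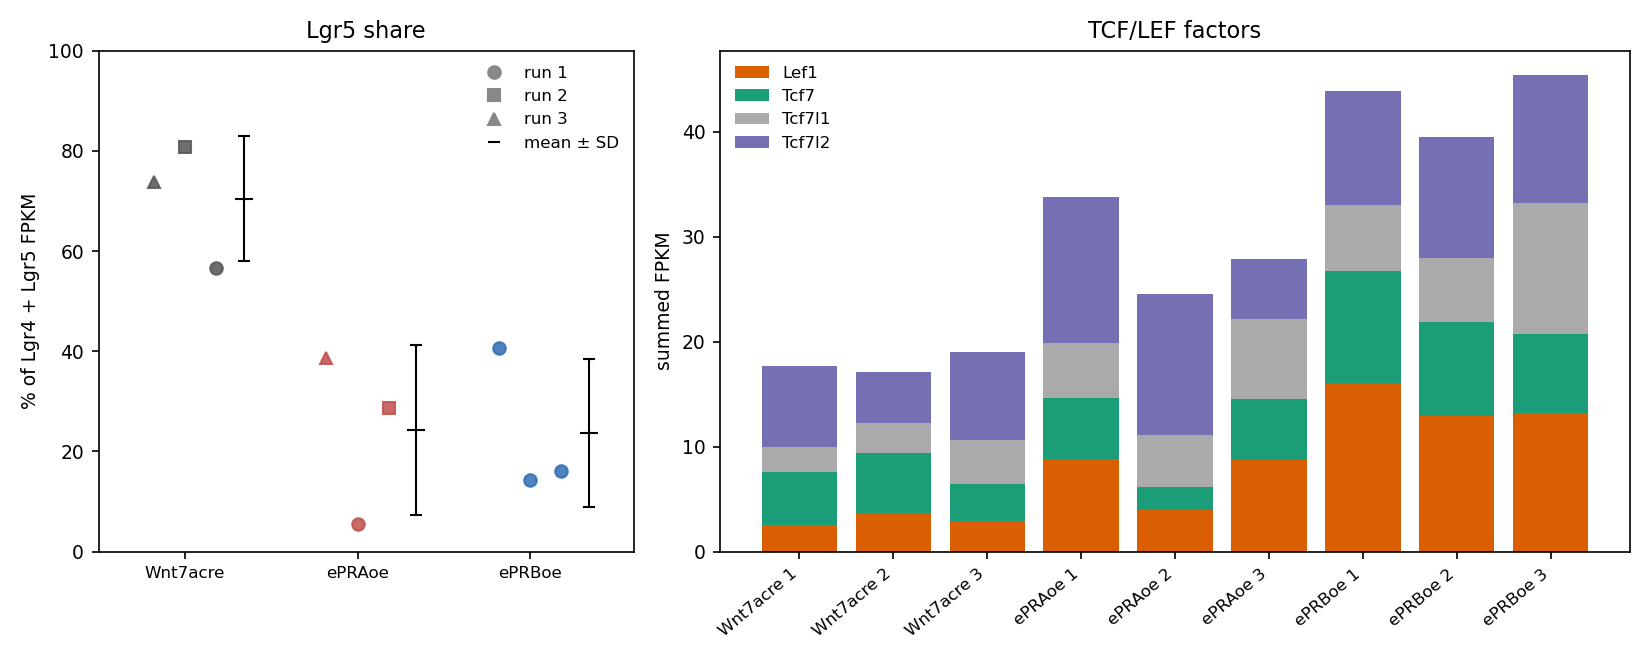
Left, Lgr5 as a percentage of summed Lgr4 and Lgr5 FPKM in each library, by genotype, with symbols for the sequencing run and the mean ± SD of 3 libraries. Right, FPKM of the TCF/LEF factors stacked to their sum in each library, where the ePRBoe libraries stand at 39.5 to 45.4 FPKM and the control libraries at 17.1 to 19.0.

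Downstream of the receptors, Ctnnb1 was the most abundant of the 8 genes in every library. It was at 172, 125 and 150 FPKM in control, 141, 183 and 141 in ePRAoe and 142, 138 and 133 in ePRBoe, and the genotypes overlap. The limma difference from control was 0.06 in ePRAoe (95% interval -0.29 to 0.41, adjusted p = 0.833) and -0.24 in ePRBoe (-0.66 to 0.19, 0.468). Transcript level does not report the protein, which the pathway regulates by degradation.

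Axin2, a scaffold of the destruction complex and a widely used readout of canonical Wnt activity, was at 3.41, 4.78 and 5.98 FPKM in control, 4.25, 5.02 and 7.96 in ePRAoe and 11.6, 8.53 and 6.82 in ePRBoe. Each ePRBoe library was above each control library, and the ePRBoe mean of 8.99 ± 2.43 was 1.90 times the control mean of 4.73 ± 1.29. The limma difference of 0.71 (SE 0.28, 95% interval 0.05 to 1.37) did not pass after adjustment (limma adjusted p = 0.168). In ePRAoe it was 0.22 (adjusted p = 0.559), with differences of -0.21, 0.63 and 0.25 within runs 1, 2 and 3. The lack of overlap between ePRBoe and control is one that 39.8% of tested genes share. The Axin2 means stood in the same order of genotypes as the stroma marker sum given above. The part of stromal RNA in the Axin2 values was not tested.

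Lef1, a DNA-binding partner of beta-catenin whose start windows are printed above, rose in both genotypes. It was at 2.495, 3.65 and 2.93 FPKM in control. The ePRAoe libraries had 8.79, 4.00 and 8.68 FPKM, and those of ePRBoe 16.1, 12.9 and 13.2. The 3 genotypes did not overlap, although ePRAoe 2 was only just above the highest control. Against a control mean of 3.02 ± 0.583, those of ePRAoe and ePRBoe were 7.16 ± 2.73 and 14.1 ± 1.76 (SD, n = 3), which are 2.37 and 4.65 times the control. On the log2(FPKM + 1) scale the limma difference from control was 0.96 in ePRAoe (SE 0.22, 95% interval 0.44 to 1.49, adjusted p = 0.0269) and 2.24 in ePRBoe (SE 0.27, 1.60 to 2.88, 0.00657). Within runs 1, 2 and 3 Lef1 in ePRAoe was above its control by 0.35, 1.06 and 1.49, and in run 1 ePRBoe was above its control by 1.93. The ePRBoe call held in each of the 19 alternatives, at 1.91 to 2.86. The ePRAoe call did not hold without Wnt7acre 1 (adjusted p = 0.0640), Wnt7acre 2 (0.116), ePRAoe 1 (0.0670), ePRAoe 3 (0.119) or ePRBoe 2 (0.0505). The difference of ePRBoe from ePRAoe was 1.28 (SE 0.27, 95% interval 0.64 to 1.92) with an adjusted p of 0.0954 by limma, and the comparison passed without Wnt7acre 1 (0.0365) or ePRAoe 1 (0.0381), the pair of run 3.

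The stroma marker sum given above moved in the same order of genotypes as Lef1, and the part of stromal RNA in the Lef1 values was not tested. Lef1 and Tcf7 are also transcribed in T cells and natural killer cells. Of 11 markers of those cells, a list added after the fit was seen, 8 were in the table. Their sum was 6.10 to 9.64 FPKM in control, 3.57 to 9.76 in ePRAoe, and reached 7.14 to 19.6 in ePRBoe. The T cell markers Cd3g, Cd247, Cd4 and Il7r were under 1 FPKM in every library, and Cd3e, Cd4 and Il7r were listed at 0 in some. The natural killer cell receptor Ncr1 averaged 2.598 FPKM in control, 2.20 in ePRAoe and 5.46 in ePRBoe. Gzma, on the same list, averaged 0.978, 2.68 and 3.85 FPKM in that order. Cd2 was highest in control, at 2.04, 0.465 and 1.42 FPKM, and by limma it fell in ePRAoe (adjusted p = 0.0399). Cd3e was also highest in control, at 1.48, 0.406 and 0.653 FPKM, with 3.39 in Wnt7acre 1. Nkg7, a granule protein of cytotoxic cells that stands on the immune list and is named after its value was seen, averaged 6.11, 5.11 and 18.4 FPKM, and by limma it rose in ePRBoe against control (adjusted p = 0.00303) and against ePRAoe (0.0129). The part of T and natural killer cell RNA in the Lef1 and Tcf7 values was not tested.

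Tcf7, another member of that family, was at 5.06, 5.78 and 3.47 FPKM in control, 5.86, 2.14 and 5.81 in ePRAoe and 10.6, 8.92 and 7.50 in ePRBoe. The ePRBoe libraries were above all 6 others, and control and ePRAoe overlap. The ePRBoe mean of 9.0 ± 1.54 was 1.89 times the control mean of 4.77 ± 1.18. By limma Tcf7 in ePRBoe rose by 1.35 (SE 0.24, 95% interval 0.80 to 1.90, adjusted p = 0.0165), and in ePRAoe it differed by -0.11 (0.745). The control and ePRAoe libraries of run 1 had the lowest Tcf7 of their groups, and without the run term the difference was 0.80 (adjusted p = 0.119). Endothelium and smooth muscle markers, like Tcf7, were at their highest in ePRBoe. The summed FPKM of 9 endothelium markers was 13.7 to 20.4 in control, 16.1 to 34.4 in ePRAoe, and 50.3 to 75.2 in ePRBoe, where 2 of 7 tested rose, and that of 6 smooth muscle markers 11.7 to 21.5, 16.6 to 30.2 and 38.0 to 119, where 1 of 4 tested rose. Over all tested genes 6.41% rose in ePRBoe against control. The part of endothelium and smooth muscle RNA in the Tcf7 values was not tested. The Tcf7 call was also lost without Wnt7acre 3 (0.0576), ePRAoe 2 (0.0611), ePRBoe 1 (0.0508) or ePRBoe 2 (0.0580). Against ePRAoe, Tcf7 in ePRBoe differed by 1.46 (95% interval 0.90 to 2.01, adjusted p = 0.0640), and this passed without Wnt7acre 1 (0.0329) or ePRAoe 1 (0.0336).

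Tcf7l2, the family member best known from the intestine, was at 7.72, 4.93 and 8.45 FPKM in control, 14.0, 13.5 and 5.74 in ePRAoe and 10.9, 11.6 and 12.3 in ePRBoe. The ePRBoe libraries were all above the controls, and ePRAoe 3 lay among the controls. The limma difference from control was 0.53 in ePRAoe (SE 0.16, 95% interval 0.16 to 0.89, adjusted p = 0.0586) and 0.37 in ePRBoe (adjusted p = 0.279). The ePRAoe difference sits at the threshold: it passed with median-of-ratios scaling (0.0477), quantile normalization (0.0455), rescaling to a fixed library sum (0.0426) or without Wnt7acre 2 (0.0493).

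With Tcf7l1, the family's remaining factor and often a repressor, the summed FPKM of the TCF/LEF factors was 17.9 ± 0.982 in control, 28.7 ± 4.70 in ePRAoe and 42.9 ± 3.06 in ePRBoe (SD, n = 3). Tcf7l1 itself was at 3.12 ± 0.953 FPKM in control, 5.92 ± 1.5 in ePRAoe and 8.30 ± 3.6 in ePRBoe. Its differences from control of 0.75 and 1.05 did not pass (adjusted p = 0.129 and 0.118 by limma). The stroma marker sum given above stood in the same order of genotypes. The part of stromal RNA in the family sum and in Tcf7l1 was not tested. The share of Lef1 in the family sum was 14.1%, 21.3% and 15.4% in control, 26.0%, 16.3% and 31.1% in ePRAoe and 36.7%, 32.7% and 29.1% in ePRBoe. ePRBoe and control shares did not overlap, and those of ePRAoe overlapped with both. The differences from control were 7.55 percentage points in ePRAoe and 15.9 in ePRBoe, with exact two-sided permutation p of 0.2 and 0.1 (0.24 and 0.2 adjusted over 6). Within runs 1, 2 and 3 the ePRAoe share exceeded the control by 0.932, 9.87 and 11.8 points, and in run 1 the ePRBoe mean exceeded it by 17.4. Tcf7l2 held the largest mean share in control and ePRAoe (39.0% and 38.9%), and Lef1 did in ePRBoe (32.8%, beside 27.0% for Tcf7l2).

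Sfrp1, the secreted inhibitor among the 8, was the least abundant in 8 of the 9 libraries. It was at 3.22, 2.28 and 1.11 FPKM in control, 0.957, 0.452 and 0.643 in ePRAoe and 0.678, 0.939 and 0.296 in ePRBoe. Each control library was above each of the other 6, with the run 1 control only just so, and the control mean of 2.20 ± 1.05 was 3.22 times that of ePRAoe and 3.45 times that of ePRBoe. The limma difference in ePRAoe was -0.88 (SE 0.23, 95% interval -1.41 to -0.36, adjusted p = 0.0376), and in ePRBoe it was -0.56 (adjusted p = 0.258). With so low a level, the added 1 FPKM shrinks the difference: with 0.1 FPKM added it was -1.49 in ePRAoe (adjusted p = 0.0609). The call held in 6 of 18 alternatives and was lost when any single library was left out except ePRBoe 3, with adjusted p up to 0.146 without Wnt7acre 2. The lowest value, 0.296 FPKM, corresponds to about 14.7 reads at the approximate depth.

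**Figure D4:**
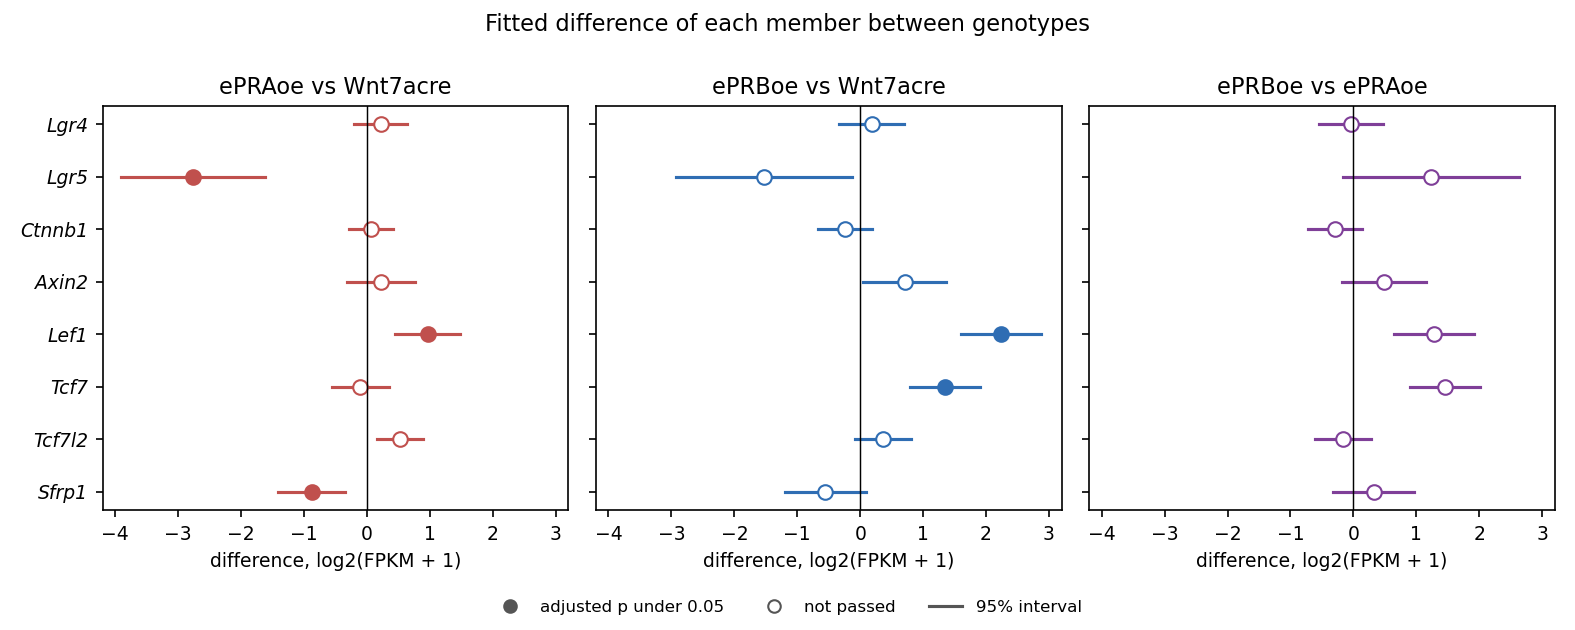
Fitted difference of each of the 8 genes between genotypes on the log2(FPKM + 1) scale (x axes), with 95% intervals from limma and filled points where the adjusted p is under 0.05. Lgr5 at -2.76, Sfrp1 at -0.88 and Lef1 at 0.96 are filled for ePRAoe, Lef1 at 2.24 and Tcf7 at 1.35 for ePRBoe, and no gene is filled for ePRBoe against ePRAoe.

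The other genes of the pathway were read from lists by role, beside the 16.2% and 8.89% of all tested genes called in ePRAoe and ePRBoe. The median differences of the lists in these 2 comparisons were -0.03 and 0.26 for receptors, 0.26 and 0.17 for R-spondins and turnover genes, 0.51 and 0.90 for inhibitors, 0.01 and 0.13 for the destruction complex, 0.18 and 0.27 for nuclear partners, 0.23 and 0.47 for targets and -0.29 and -0.08 for the stem cell list, against -0.03 and 0.10 over all genes. All but the receptors' in ePRAoe and the stem cell list's lay above the median of all genes. Among Wnt receptors and co-receptors, 12 of 15 listed genes were tested. Fzd6, a Frizzled receptor, rose in ePRAoe from 41.3 ± 16.4 to 91.8 ± 42.8 FPKM (limma difference 1.12, adjusted p = 0.0435). Its control libraries had 58.3, 25.6 and 40.1 FPKM and its ePRAoe libraries 62.9, 141 and 71.6. ePRAoe 1 was thus only just above Wnt7acre 1, the control of the same run. Fzd1 rose in ePRBoe from 4.58 ± 0.838 to 8.61 ± 1.03 (0.91, 0.0315). The Fzd6 call held in 8 alternatives and was lost in 11, and the Fzd1 call held in 11 and was lost in 8. No receptor on the list fell in either comparison by the same limma test, in which 4 of the 12 in ePRAoe and 3 in ePRBoe had an unadjusted p under 0.05. The share of all tested genes at that cut was not computed, so such counts, here and for the lists below, cannot be weighed. Of the R-spondins and the turnover ligases that remove Frizzled, 3 of 7 were tested and 0 passed, with 1 in ePRAoe and 2 in ePRBoe at an unadjusted p under 0.05. The ligase Znrf3 was at 16.4, 11.1 and 10.0 FPKM on average in control, ePRAoe and ePRBoe, and its paralogue Rnf43 at 5.42, 7.10 and 5.82.

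Among secreted and membrane inhibitors, Sfrp2 rose in both genotypes. Of 7 tested among 16 listed, 2 rose and 1 fell in ePRAoe, and 2 rose and 0 fell in ePRBoe. Sfrp2, a paralogue of Sfrp1, was at 9.13 ± 1.48 FPKM in control, 24.7 ± 12.4 in ePRAoe (difference 1.25, adjusted p = 0.0106) and 42.3 ± 4.71 in ePRBoe (2.20, 0.00682). Frzb, another secreted Wnt binder, rose in ePRAoe from 0.495 ± 0.120 to 1.84 ± 0.637 FPKM (0.90, 0.0329). Under 1 FPKM in each control, it was tested only through the groups where it was high. Its rise therefore adds no weight to these counts. Dkk3 rose in ePRBoe from 1.88 ± 0.293 to 6.82 ± 0.258 (1.48, 0.0448). Kremen1, a receptor for Dkk proteins, fell in ePRAoe from 23.8 ± 11.6 to 8.01 ± 1.23 FPKM (-1.37, 0.00637). The stroma marker sum given above was also higher in both receptor genotypes, and its part in the rises of Sfrp2, Frzb and Dkk3 was not tested. The calls for Sfrp2 and Kremen1 held in every alternative, whereas Frzb lost its call without Wnt7acre 2 (adjusted p = 0.144) and Dkk3 without Wnt7acre 3 (0.182), among others.

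Of 13 tested genes of the Dishevelled and destruction complex list, 1 rose in ePRAoe and 0 passed in ePRBoe, with 4 and 0 at an unadjusted p under 0.05. The riser was Gsk3b, a kinase that marks beta-catenin for degradation, from 37.5 to 53.5 FPKM (limma difference 0.52, adjusted p = 0.0347), a call lost without Wnt7acre 2 (0.132). The most abundant of the list, the tankyrase Tnks2 and the casein kinase Csnk1a1, did not pass, at 85.9, 74.2 and 67.3 FPKM and at 63.2, 82.6 and 75 FPKM in control, ePRAoe and ePRBoe. Of 14 nuclear partners and repressors, 1 rose in each comparison with control, with 5 in ePRAoe and 6 in ePRBoe at an unadjusted p under 0.05. Tle2, a Groucho-type corepressor, rose in ePRAoe from 1.32 to 3.35 FPKM (0.88, 0.0221) and was lost without the run term (0.124), among others. Pygo1, a coactivator of beta-catenin, rose in ePRBoe from 0.436 to 1.97 FPKM (1.02, 0.0294) and was lost with quantile normalization (0.153), among others. Pygo1 was under 1 FPKM in each control and was tested only through the receptor genotypes, so its rise adds no weight to these counts. The part of stromal RNA in its values was not tested.

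Among established targets of the pathway, calls fell on both sides. Of 17 tested among 22 listed, 2 rose and 2 fell in ePRAoe. Tnfrsf19 rose there from 8.57 ± 3.97 to 27.3 ± 6.46 FPKM (limma difference 1.63, adjusted p = 0.0105) and Wisp1, a matricellular protein, from 0.520 ± 0.168 to 12.3 ± 8.99 (2.76, 0.0155). Myc, a growth regulator, fell from 102 ± 61.6 to 23.3 ± 9.86 (-1.96, 0.00533), and Ascl2, a transcription factor of intestinal stem cells, fell from 5.72 ± 3.01 to 0.597 ± 0.354 (-2.0, 0.00439). In ePRBoe, 1 rose and 1 fell: Cd44, a cell surface receptor named here after its value was seen, rose by 1.06 (adjusted p = 0.0265), with group means of 6.27 ± 3.62 FPKM in control and 6.83 ± 0.50 in ePRBoe. In the run of the ePRBoe libraries its control was at 2.48 FPKM, against 9.68 and 6.64 in the other controls. Ascl2 fell to 0.597 ± 0.260 FPKM (-1.82, 0.0168), a call lost without Wnt7acre 3 (0.191) or ePRBoe 2 (0.0554). Ascl2 reached 1 FPKM only in control libraries and, like Sfrp1, entered the test through that group. Wisp1 was under 1 FPKM in each control and entered it only through the receptor genotypes. The calls of Ascl2 and Wisp1 therefore add no weight to these counts. The part of stromal RNA in the Wisp1 values was not tested. Myc and Ascl2 in ePRAoe held in every alternative, whereas Tnfrsf19 and Wisp1 were lost without Wnt7acre 2, Wnt7acre 3, ePRAoe 2 or ePRAoe 3, at adjusted p up to 0.0720 and 0.0943.

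Among genes that accompany Lgr5 in stem cells of other epithelia, Prom1 fell and Tnfrsf19 rose in ePRAoe. Of 8 tested among 9 listed, 2 rose and 2 fell in ePRAoe and 0 rose and 3 fell in ePRBoe. Prom1, a membrane glycoprotein of apical protrusions, fell from 134 ± 15.6 FPKM in control to 70.3 ± 11 in ePRAoe (limma difference -0.93, adjusted p = 0.0120) and 68.3 ± 6.46 in ePRBoe (-0.99, 0.0294). Tnfrsf19 is also on this list, as is Ascl2. Ascl2 entered the test only through the control libraries, so its falls add no weight to these counts. The third to fall in ePRBoe was the ion cotransporter Slc12a2 (-1.27, 0.0476), named after its value was seen. Smoc2, a secreted calcium-binding protein, rose in ePRAoe from 0.358 ± 0.0562 to 5.17 ± 3.17 FPKM (2.04, 0.0241), a call lost without Wnt7acre 2 (0.132), among others. Like Wisp1, Smoc2 was under 1 FPKM in each control and was tested only through the receptor genotypes. The Smoc2 rise therefore adds no weight to these counts. The part of stromal RNA in its values was not tested. Prom1 lost its ePRBoe call without Wnt7acre 3 (0.157) and its ePRAoe call without ePRAoe 2 (0.0542), each among others. In ePRBoe against ePRAoe, no gene of these pathway lists passed by limma. The counts at an unadjusted p under 0.05 there were 2 of the receptors, 1 of the turnover genes, 3 of the inhibitors, 1 each of the destruction complex, the nuclear partners and the stem cell list, and 6 of the targets. The share of all tested genes at that cut was not computed here either, so these counts cannot be weighed.

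**Figure D5:**
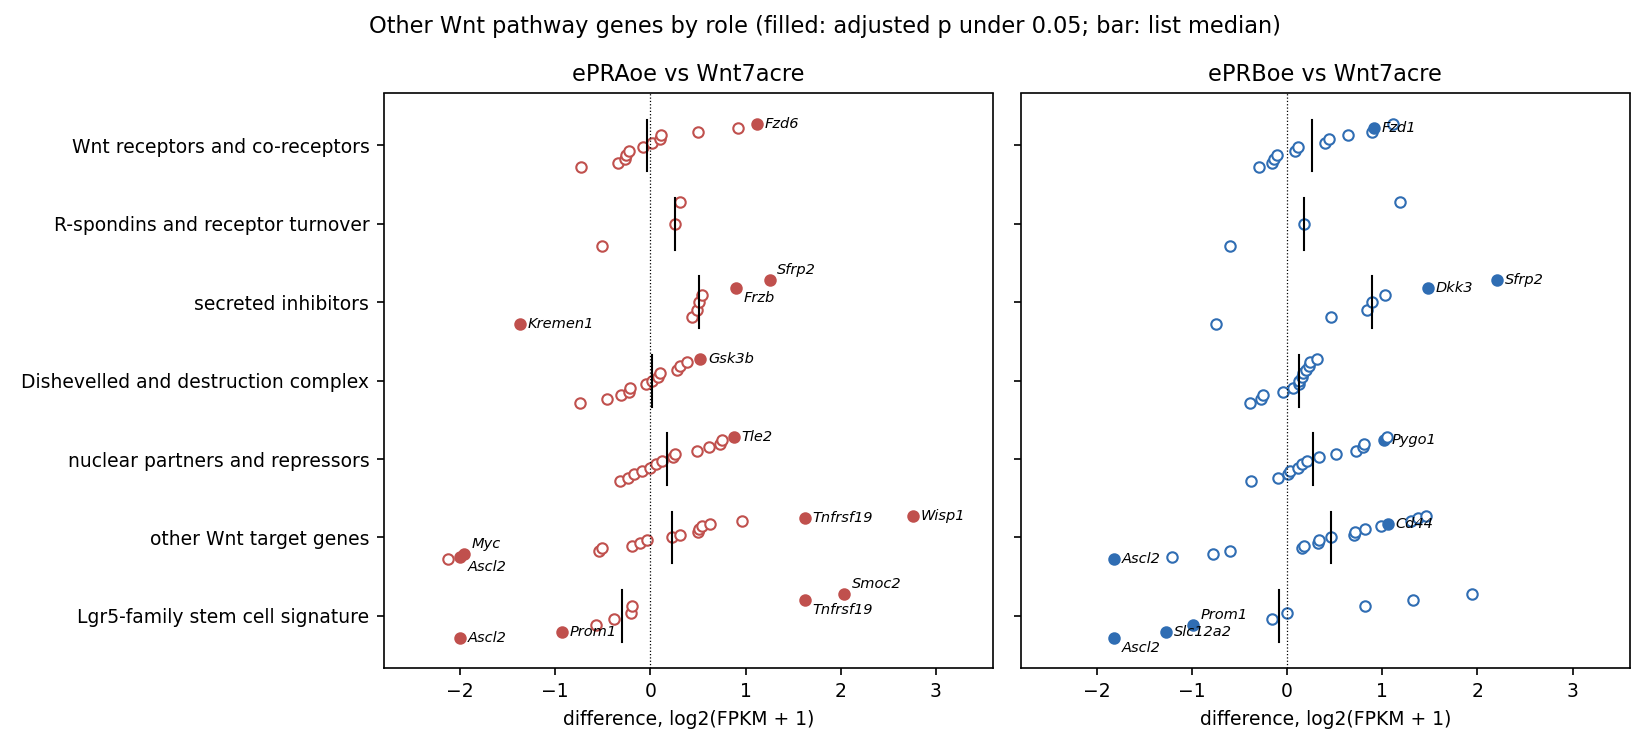
Fitted difference from control on the log2(FPKM + 1) scale (x axes) of each tested gene of the pathway lists (rows), with filled, named points where the adjusted p is under 0.05 and a bar at each list's median. The inhibitors' medians stand at 0.51 in ePRAoe and 0.90 in ePRBoe, and the targets in ePRAoe spread from Ccnd1 at -2.12 (open) to Wisp1 at 2.76.

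By Pearson correlation of log2(FPKM + 1) over the 9 libraries, among 8895 genes with at least 5 FPKM on average in a genotype, the patterns most like that of Lgr5 were those of Zcchc2 (r = 0.976), Tulp3 (0.976), Apbb2 (0.973), Adam28 (0.966) and Atp13a3 (0.964). All 5 were lowest in ePRAoe 2, as Lgr5 was. The patterns most like that of Lef1 were those of Fscn1 (0.989), Osr2 (0.981), Renbp (0.980), Hoxa11 (0.980) and Cd248 (0.977). Hoxa11, one of the stroma markers, averaged 4.66, 14.9 and 25.8 FPKM in control, ePRAoe and ePRBoe, and Osr2 17.2, 37.2 and 71.1. The libraries share genotypes and runs, so these values describe likeness over 9 related points. In the Lgr5 set the ePRAoe and ePRBoe means were close to each other, with Adam28 at 11.5 FPKM in control and 3.93 and 3.67 in the others.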

How the data were processed

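RNA of laser-captured uterine luminal epithelium was sequenced in 9 libraries. The authors deposited 1 table of FPKM values per gene and library. Per the submitters' processing notes, STAR 2.5.2b, featureCounts 1.5.0-p1, edgeR 3.28.0 and limma 3.42.2 were used with mm10; neither annotation nor gene lengths were stated, and errors in length would shift levels between genes, shares within a family and, through the added 1 FPKM, the differences of low genes. No read counts were used, so no count model or counting interval was computed. Depth was estimated from 860 low genes, of which 29.2% lay on a step common to their libraries. The estimate is a single value that takes the same divisor for each library.

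The 12347 genes that reached 1 FPKM in 3 or more libraries were kept, and log2(FPKM + 1) was fitted with limma 3.58.1 (trend, R 4.3.3) on genotype and sequencing run, over all 9 libraries, two-sided, with 4 residual and 3.64 prior degrees of freedom and Benjamini-Hochberg adjustment over all tested genes at 0.05. The moderated test was checked on simulated data. Shares within gene families were compared by exact permutation. The members and lists were chosen with earlier results of these data known. Named are the 8 members, Pgr and Wnt7a; of each pathway list up to 4 genes that passed, by the size of limma's statistic, or the 2 most abundant where fewer than 2 passed; of marker lists the most abundant; and the 5 nearest patterns of Lgr5 and of Lef1. Alternatives were other pseudocounts, filters, scalings, run terms and variance models, and leaving out each library. Gene positions are from GENCODE M21, which held 98.8% of the symbols, and start windows from RefSeq.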

Additional observations from a re-analysis of the deposited data

How the results depend on the processing

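Lef1 in ePRBoe against control kept its call in all 19 alternatives, as did Kremen1 and Myc in ePRAoe and Sfrp2 in both genotypes. Ascl2 in ePRAoe kept it in the 18 that could test it. It had entered the main test only through the control libraries, where it was high, so this adds no weight to its fall. The other calls of the report that were recomputed were lost in at least 1; those of Wnt7a, Cd44, Slc12a2 and the marker genes were not recomputed. Sfrp1, Ascl2, Dkk3, Frzb, Pygo1, Smoc2 and Tle2 could not be tested with a mean of at least 5 FPKM required, and the share without Lgr6 was not run because Lgr6 was not analysed here. Leaving out Wnt7acre 1, Wnt7acre 2, ePRAoe 1 or ePRAoe 3 leaves a lone library in its run, which the run term absorbs.

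The number of genes called in ePRAoe against control was 1998, and 747 to 2719 with 1 library left out (815 without Wnt7acre 2, 761 without Wnt7acre 3, 747 without ePRAoe 2, 803 without ePRAoe 3). In ePRBoe against control it was 1098, 653 with a mean of at least 5 FPKM required, 1786 without the run term, and 232 to 1602 with 1 library left out (232 without Wnt7acre 3, 364 without ePRAoe 2, and 588, 389 and 482 without ePRBoe 1, 2 and 3). In ePRBoe against ePRAoe it was 40, 19 without the filter, 7 without the run term, 22 with median-of-ratios factors, 15 with quantile normalization, and 0 to 546 with 1 library left out (546 without Wnt7acre 1 and 544 without ePRAoe 1; 0 without ePRAoe 2, ePRBoe 1 or ePRBoe 2; 9, 22, 22 and 26 without Wnt7acre 3, Wnt7acre 2, ePRAoe 3 and ePRBoe 3). Of the ePRBoe calls against control 72.1% were higher, which became 56.4% with median-of-ratios factors and 55.7% with quantile normalization; the median of all genes there moved from 0.10 to -0.03 under both.

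The labels do not say whether the replicate numbers pair the libraries. The correlation of same-numbered deviations was 0.171, -0.0343 and 0.0604 for ePRAoe and control. It was -0.0697, -0.230 and -0.0889 for ePRBoe and control, and 0.145, -0.0847 and 0.0723 for ePRBoe and ePRAoe. Libraries of ePRAoe and control known to share run 1, 2 or 3 had 0.0325, 0.182 and 0.171. With shared runs also this weakly correlated, these values cannot decide whether the numbers pair the libraries. With the replicate block in place of the run term, 1113 genes were called in ePRAoe against control and 4 in ePRBoe against ePRAoe; by limma, Lef1 (0.96, adjusted p = 0.0690) and Sfrp1 (-0.88, 0.0656) in ePRAoe and Tcf7 in ePRBoe (0.80, 0.145) did not pass, and Lgr5 in ePRBoe did (-2.88, 0.0229). With that block, and equally without the run term, the difference of ePRBoe from ePRAoe reversed for Lgr5 (-0.12), Tcf7l2 (0.15) and Sfrp1 (-0.049), and for Sfrp1 it was -0.13 with quantile normalization.

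Leaving out 1 library reversed only differences that had not passed: Lgr4 in ePRAoe (-0.020 to 0.45), in ePRBoe (-0.048 to 0.64) and between them (-0.50 to 0.19), Ctnnb1 in ePRAoe (-0.056 to 0.23) and Tcf7 in ePRAoe (-0.25 to 0.093). The Lgr5 share of ePRBoe less that of ePRAoe was -0.61 points (exact permutation p of 1), 18.2 in run 1 alone and -10.0 to 6.59 with 1 library left out. Against control, it stayed between -53.3 and -36.7 for ePRAoe and between -55.2 and -41.6 for ePRBoe. The Lef1 share of ePRBoe was 20.04 points above control without Tcf7l1 in the sum, and 16.5 above ePRAoe in run 1 alone, against 8.34 over all libraries.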
